A study of Homo sapiens with 6 samples.

Results

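The 6 genes described here encode the signal-transducing SMADs, SMAD1, SMAD2, SMAD3, SMAD4, SMAD5 and SMAD9. They were chosen by gene symbol as the receptor-regulated SMADs and their common partner, out of 24462 symbols counted by RNA-seq. All 6 passed the filter on low counts and are among the 16314 genes tested. The cells were PC3, a human prostate cancer line derived from a bone metastasis, grown in RPMI1640 with fetal bovine serum. Both groups were transfected with siRNA at 80 nM for 72 h. The 3 libraries labelled si-Control received a non-targeting siRNA, and the 3 libraries labelled si-CITED2 received siRNA against CITED2, a transcriptional cofactor that binds p300 and CBP. All libraries came from a single cell line, and the methods list 1 siRNA sequence for CITED2.

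SMAD proteins carry signals of the TGF-β family from receptors at the cell surface to the nucleus. Type I receptors phosphorylate the receptor-regulated SMADs at their C-terminal end. SMAD2 and SMAD3 serve TGF-β and activin receptors, and SMAD1, SMAD5 and SMAD9 serve the BMP receptors. Both branches share SMAD4, which enters the complexes but is not itself phosphorylated by the receptors, and SMAD6 and SMAD7 restrain the pathway. Counts of mRNA measure neither this phosphorylation nor protein.

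The end of each coding sequence shows this division, and is printed because it separates the substrates of the receptors from SMAD4. The lines below give the last 30 coding bases from the longest coding transcript in GENCODE 29, 5′ to 3′, ending in the stop codon. Capitals mark the last 3 codons before the stop.
SMAD2: ccttcagtgcgttgctcaAGCATGTCAtaa
SMAD3: ccaagcatccgctgttccAGTGTGTCTtag
SMAD1: cctcataatcctatttcaTCTGTATCTtaa
SMAD5: cctctgaaccccatatctTCTGTTTCAtaa
SMAD9: ccacataaccccatttctTCAGTGTCTtaa
SMAD4: ccgattgcagacccacaaCCTTTAGACtga
In the 5 receptor-regulated genes the first and the last of the capitalized codons encode serine, and 3 of the last 4 codons do. The serines of the first and the last capitalized codon are those known to be phosphorylated by the receptors. SMAD4 has 0 serine codons among its last 4.

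The 6 genes lie on 5 chromosomes (GRCh38, GENCODE 29), so apart from SMAD2 and SMAD4 each is on a chromosome of its own. SMAD2 is at chr18:47808957-47931146 on the minus strand and SMAD4 at chr18:51028394-51085045 on the plus strand. SMAD3 is at chr15:67063763-67195195 on the plus strand. SMAD1 is at chr4:145481194-145558079 on the plus strand, SMAD5 at chr5:136132845-136188747 on the plus strand and SMAD9 at chr13:36844831-36920765 on the minus strand. The coding sequences have similar lengths, from 1278 bases in SMAD3 to 1659 in SMAD4. The annotated longest coding transcripts do not, ranging from 2085 bases for SMAD1 to 34526 for SMAD2. No stretch of 50 exonic bases was shared between any of the 6 genes, so a read of that length without mismatches would be assigned to no more than 1 of them.

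The total count per library ranged from 19494137 to 28911542, and 3 counts, taken as the limit of detection, corresponded to 0.104 to 0.154 CPM, which is the count scaled to the library size. The intended target did not follow the labels. CITED2 mRNA stood at 859, 892 and 773 normalized counts in the libraries labelled si-Control and at 1084, 921 and 984 in those labelled si-CITED2. Its log2 fold change was 0.24 (SE 0.07, adjusted p = 0.0363 by edgeR), a rise where a fall of the transcript would mark knockdown. The call was lost without TMM (adjusted p = 0.0518, edgeR) and without si-Control replicate 1 (0.0536) or 3 (0.141) or si-CITED2 replicate 1 (0.154) or 3 (0.0846), while the direction stayed the same. The study checked its knockdown in PC3 cells on the protein, by immunoblot. CITED2 protein was not measured in these files, and every direction below is that of the labels. The epithelial markers KRT8, KRT18, KRT19 and EPCAM and the mesenchymal filament gene VIM were all detected, at 89.4 to 1567 CPM. Of the prostate kallikrein genes, which are low in PC3, KLK3 reached at most 0.0930 CPM and KLK2 had 0 counts in every library. Among markers of other cells, the leukocyte sum was 135 to 146 CPM in si-Control and 122 to 146 CPM in si-CITED2, nearly all of it CD68, while PTPRC and CD3E reached at most 2 and 1 counts. The endothelial and fibroblast sums stayed at or below 0.830 and 0.558 CPM.

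SMAD3 was the single member that passed the test, and it rose in the libraries labelled si-CITED2. Its abundance was 1.27-fold higher there (95% interval 1.16 to 1.38). SMAD2, the other SMAD of the TGF-β and activin branch, had a log2 fold change of -0.12. SMAD1, SMAD4, SMAD5 and SMAD9 lay between -0.09 and 0.10. Thus 1 of 6 members rose and 0 fell, against 9.36% of all genes tested that rose and 8.09% that fell at an adjusted p under 0.05. The count of members is small, and nothing is read from its share. Without TMM, 1390 of all genes rose and 1530 fell, against 1527 and 1319 with it, while the members again counted 1 and 0. The median log2 fold change of the members was 0.07, and that of all genes tested was -0.0014.

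SMAD3 mediates TGF-β and activin signals and binds DNA directly. It was measured at 3585, 4248 and 4072 normalized counts in the libraries labelled si-Control, and at 4921, 5146 and 4997 in those labelled si-CITED2. Every library labelled si-CITED2 was above every library labelled si-Control, and the lowest value was that of si-Control replicate 1. The means were 3968 ± 343 and 5022 ± 114 (SD, n = 3). The log2 fold change was 0.34 (SE 0.06, adjusted p = 0.000575 by the quasi-likelihood test of edgeR, Benjamini-Hochberg adjusted). With regard to size, 89.8% of genes tested had a log2 fold change at or below that of SMAD3. The call held with each library left out, where the log2 fold change was 0.27 to 0.39.

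SMAD2 acts in the same branch as SMAD3, and its main isoform does not bind DNA directly. Its normalized counts were 3249, 3009 and 3266 in the libraries labelled si-Control and 3013, 2902 and 2837 in those labelled si-CITED2. The groups met at their edges, si-CITED2 replicate 1 being slightly above si-Control replicate 2. The means were 3175 ± 144 and 2917 ± 89.0 (SD, n = 3). The log2 fold change of -0.12 (95% interval -0.23 to -0.01) did not pass after adjustment by edgeR (adjusted p = 0.128).

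SMAD4 is the partner of both branches. It was counted at 1098, 1117 and 1073 normalized counts in the libraries labelled si-Control and at 1161, 1123 and 1119 in those labelled si-CITED2. All values of the second group exceeded those of the first, though the gap between the groups was only a few counts. The means were 1096 ± 21.8 and 1134 ± 23.3 (SD, n = 3). Its log2 fold change of 0.05 (95% interval -0.07 to 0.17) did not pass the test (adjusted p = 0.640, edgeR).

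**Figure D1:**
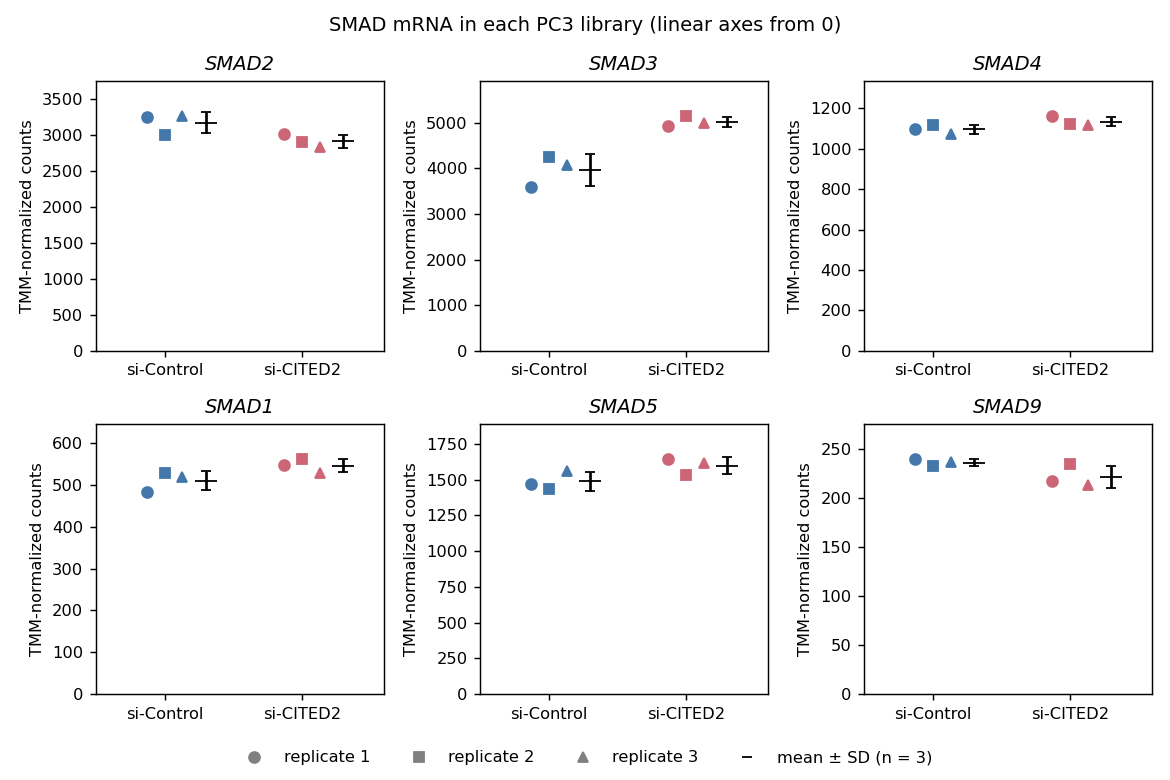
TMM-normalized counts of each SMAD gene (vertical axes, linear from 0) in the 3 si-Control and 3 si-CITED2 libraries, with points as libraries and bars as mean ± SD. SMAD3 stood at 3585 to 4248 in si-Control and 4921 to 5146 in si-CITED2, while the groups of the other genes lay close together or overlapped.

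The BMP-branch SMADs did not pass the test. SMAD1 gave 484, 529 and 519 normalized counts in the libraries labelled si-Control and 548, 562 and 530 in those labelled si-CITED2. The groups did not overlap, but the highest control and the lowest si-CITED2 library differed by little more than 1 count. The log2 fold change of SMAD1 was 0.10 (95% interval -0.06 to 0.26, adjusted p = 0.436 by edgeR).

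SMAD5 is close to SMAD1 in function. It was measured at 1473, 1434 and 1565 normalized counts in the libraries labelled si-Control and at 1643, 1534 and 1620 in those labelled si-CITED2. The groups overlapped, because si-CITED2 replicate 2 fell below si-Control replicate 3. The log2 fold change of SMAD5 was 0.10 (95% interval -0.02 to 0.22, adjusted p = 0.263 by edgeR).

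SMAD9, also called SMAD8, was the member with the fewest counts. Its normalized counts were 239, 232 and 237 in the libraries labelled si-Control and 217, 234 and 213 in those labelled si-CITED2. The groups overlapped through si-CITED2 replicate 2. The log2 fold change of SMAD9 was -0.09 (95% interval -0.31 to 0.13, adjusted p = 0.635 by edgeR), the widest interval of the 6 genes.

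The intervals set what these libraries could have shown. For SMAD4 the upper limit was a 1.12-fold rise, for SMAD5 1.17-fold and for SMAD1 1.20-fold. By the order of single libraries, 3 of 6 members (SMAD1, SMAD3 and SMAD4) had every si-CITED2 value above every si-Control value. Among all genes tested, 16.4% did so, 16.1% had every value below, and 32.5% thus had groups that did not overlap.

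**Figure D2:**
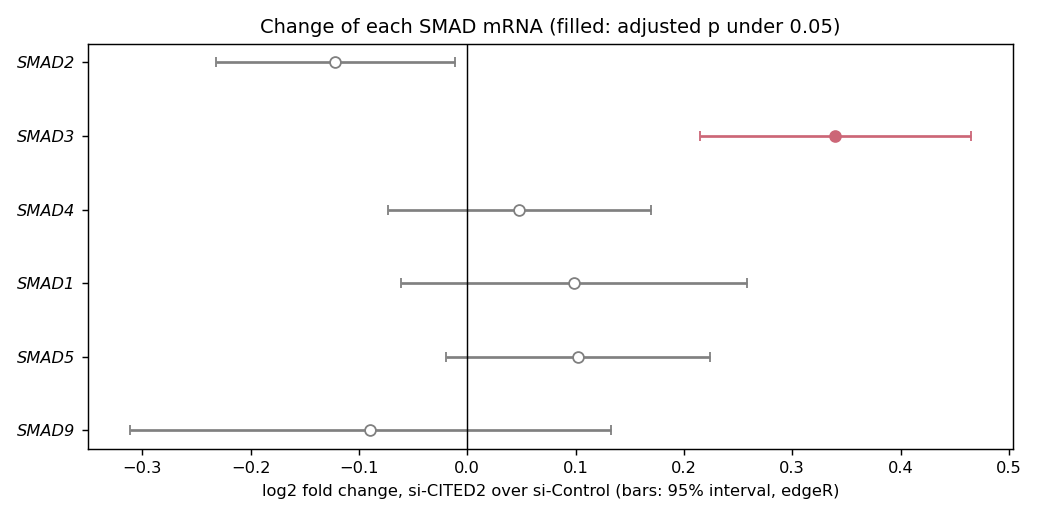
Log2 fold change of each SMAD gene in si-CITED2 over si-Control libraries (horizontal axis). Bars are the 95% interval derived from the edgeR test, and filled points mark an adjusted p under 0.05. SMAD3 is the filled point at 0.34, and the intervals of SMAD1, SMAD4, SMAD5 and SMAD9 include 0.

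The spread between replicate libraries differed among the members. SMAD3 had the highest coefficient of variation over the si-Control libraries, 8.65%, where counting error alone would give 1.56%. Over the si-CITED2 libraries SMAD3 was among the lower ones, with 2.28% against 1.47% from counting. SMAD2 varied by 4.54% and 3.05% and SMAD5 by 4.52% and 3.61%, all above their counting error. SMAD1 varied by 4.58% and 2.89%, where counting error would give 4.33% and 4.47%. SMAD4 (1.99% and 2.05%) and SMAD9 (1.55% and 5.11%) varied by no more than counting error in either group. For SMAD9, with 179 to 288 raw counts per library, counting error was 6.37% in si-Control and 7.03% in si-CITED2.

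Ratios within a library need no library-size normalization, and they compare the members of a branch directly. The ratio of raw SMAD3 to SMAD2 counts was 1.10, 1.41 and 1.25 in the libraries labelled si-Control and 1.63, 1.77 and 1.76 in those labelled si-CITED2. All si-CITED2 ratios were above all control ratios, and the mean ratio on the log2 scale was 1.38-fold higher. The exact two-sided permutation test gave p = 0.1, the smallest value that 3 against 3 libraries allow, and 0.15 after adjustment over the 3 ratios computed. Expressed as a share, SMAD3 made up 52.5%, 58.5% and 55.5% of the SMAD2 and SMAD3 counts in the control libraries. In the libraries labelled si-CITED2 it made up 62.0%, 63.9% and 63.8%. The Wilson 95% intervals, which cover counting error only, reached from 51.3% to 59.6% over the controls and from 60.8% to 65.0% over the others.

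The ratio of SMAD3 to SMAD4 behaved alike. It was 3.27, 3.80 and 3.79 in the libraries labelled si-Control and 4.24, 4.58 and 4.47 in those labelled si-CITED2, again without overlap. The mean was 1.23-fold higher on the log2 scale (exact permutation p = 0.1, adjusted 0.15). The ratios SMAD3 to SMAD2 and SMAD3 to SMAD4 share the SMAD3 counts and are not independent.

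In the BMP branch, the ratio of SMAD1 to SMAD5 was 0.329, 0.369 and 0.332 in the libraries labelled si-Control. It was 0.333, 0.366 and 0.327 in those labelled si-CITED2. These values overlapped over almost their whole range, and the difference in mean log2 ratio was -0.0032 (exact permutation p = 0.9, adjusted 0.9).

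**Figure D3:**
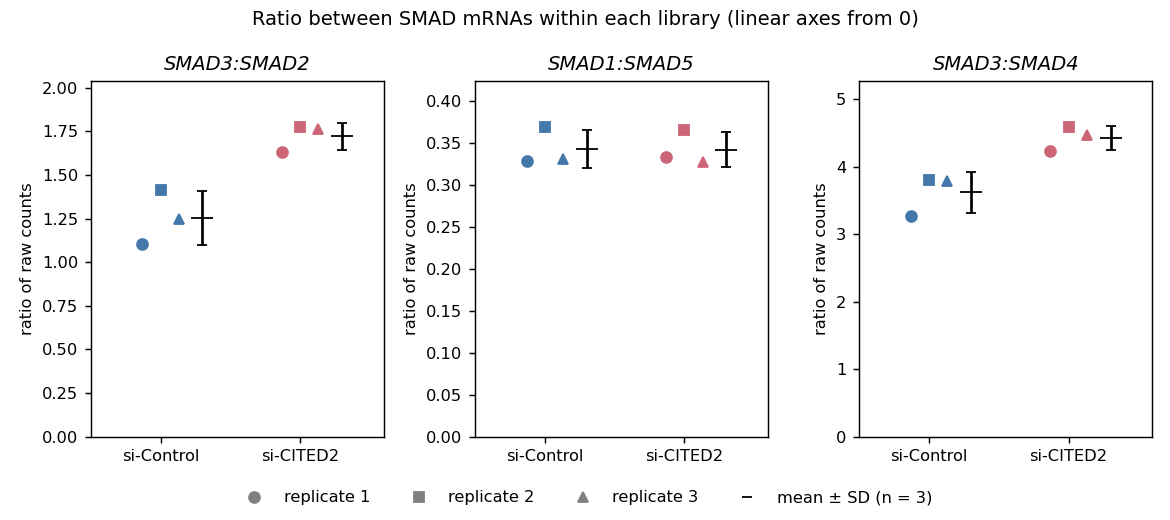
Ratio of raw counts of 2 SMAD genes within each library (vertical axes, linear from 0), with points as libraries and bars as mean ± SD for si-Control and si-CITED2. SMAD3 to SMAD2 was 1.10 to 1.41 in si-Control and 1.63 to 1.77 in si-CITED2, while SMAD1 to SMAD5 stayed between 0.327 and 0.369 in both.

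Levels of different genes can be compared only per length, and here the length chosen decided most of the order. Per kilobase of the longest coding transcript, the si-Control levels were 27.0 CPM for SMAD3, 10.4 for SMAD1, 9.02 for SMAD5, 5.31 for SMAD4, 3.90 for SMAD2 and 1.79 for SMAD9. On this scale SMAD1 (9.86 to 11.4 over the 6 libraries) and SMAD5 (8.68 to 9.95) overlapped, and no other neighbours in the order did. Per kilobase of merged exons, SMAD3 (18.5) and SMAD5 (7.0) led in si-Control, before SMAD2 (3.71), SMAD1 (3.58) and SMAD4 (3.55). The ranges of SMAD2, SMAD1 and SMAD4 over all 6 libraries overlapped. In si-CITED2 alone the means were 3.83 ± 0.11 for SMAD1, 3.67 ± 0.08 for SMAD4 and 3.41 ± 0.10 for SMAD2 (SD, n = 3). Divided by the coding length alone, SMAD2 came next after SMAD3, with 96.0 against 132, since the very long untranslated sequence of SMAD2 left the length. The counts still came from the whole gene, so these are not levels over the coding sequence. SMAD3 was the highest and SMAD9 the lowest of the 6 under all 3 lengths, and in CPM without length. Which transcripts PC3 cells use cannot be read from totals per gene.

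**Figure D4:**
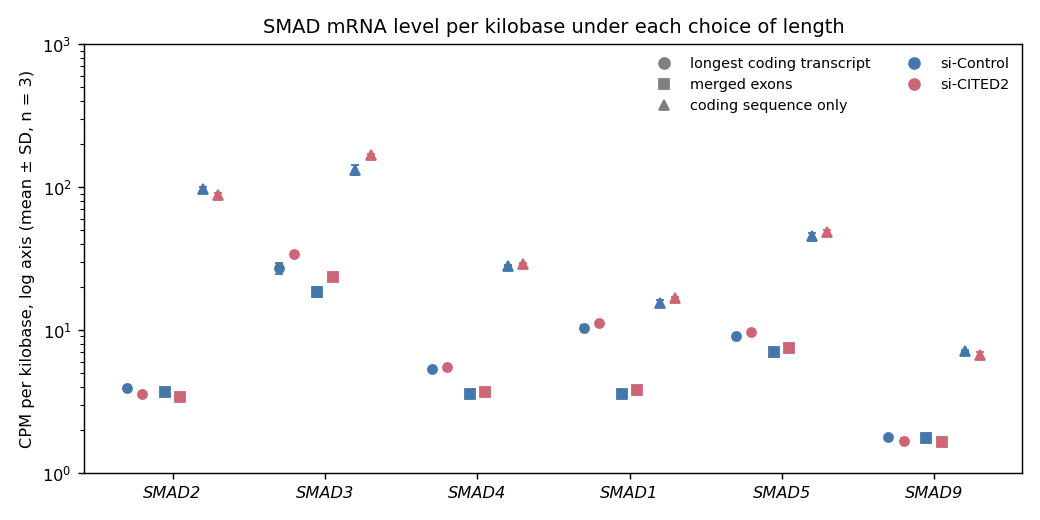
CPM per kilobase (vertical axis, log scale, mean ± SD, n = 3) of each SMAD gene under 3 choices of length, shown as circles, squares and triangles, for si-Control and si-CITED2. SMAD3 was highest and SMAD9 lowest under each, while SMAD2 moved from 3.90 to 96.0 in si-Control with the length used.

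Reads of genes that overlap a SMAD gene could be counted with it, and whether the counting used strand is not given in the sources used here. SMAD1-AS1, on the opposite strand, shares 376 exonic bases with SMAD1 and had 88 to 134 raw counts per library, against 441 to 657 for SMAD1. Its log2 fold change of 0.20 (SE 0.14) did not pass (adjusted p = 0.384, edgeR). SMAD5-AS1 shares 610 exonic bases with SMAD5 and had 12 to 21 raw counts, with a log2 fold change of 0.47 (SE 0.32, adjusted p = 0.381 by edgeR). Of the coding sequence, 329 of 1349 stretches of 50 bases in SMAD1 also occur in SMAD1-AS1, and 590 of 1610 in SMAD4 occur in the overlapping transcript AC091551.1. SMAD2, SMAD3, SMAD5 and SMAD9 had 0 coding stretches of 50 bases that occur in any other annotated gene. Over its exons, SMAD3 shares 182 bases with AC087482.1 on the opposite strand, a gene that was not among those tested. Of all exonic stretches of 50 bases in SMAD3, 1.46% occur in other annotated genes.

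Promoter sequences of the members were compared as a description, and whether they bear on the change of SMAD3 was not tested. The windows run from 250 bases before to 50 after each start annotated by RefSeq (GRCh38.p14), and all 6 genes matched. The letters CAGAC, which contain the core bound by SMAD3 and SMAD4, were searched on both strands. They occur in 45.3% of the 35116 windows of all genes. They were found in 3 of 5 windows of SMAD3, in 0 of 2 of SMAD2, in 1 of 5 of SMAD1, in the 1 window of SMAD9, and not in the single windows of SMAD4 and SMAD5. The palindrome GTCTAGAC, which holds no complete CAGAC, occurs in 0.202% of all windows and in 0 of those of the 6 genes. The window of the most upstream start of SMAD3 (chr15:67065352-67065651, plus strand), and then of SMAD2 (chr18:47930823-47931122, minus strand), are printed 5′ to 3′ with CAGAC in capitals.
SMAD3: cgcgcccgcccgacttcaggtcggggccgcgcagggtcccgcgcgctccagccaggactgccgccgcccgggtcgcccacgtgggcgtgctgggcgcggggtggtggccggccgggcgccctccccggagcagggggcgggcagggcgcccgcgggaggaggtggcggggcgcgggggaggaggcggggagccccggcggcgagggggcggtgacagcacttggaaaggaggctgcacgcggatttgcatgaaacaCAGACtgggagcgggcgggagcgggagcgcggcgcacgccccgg
SMAD2: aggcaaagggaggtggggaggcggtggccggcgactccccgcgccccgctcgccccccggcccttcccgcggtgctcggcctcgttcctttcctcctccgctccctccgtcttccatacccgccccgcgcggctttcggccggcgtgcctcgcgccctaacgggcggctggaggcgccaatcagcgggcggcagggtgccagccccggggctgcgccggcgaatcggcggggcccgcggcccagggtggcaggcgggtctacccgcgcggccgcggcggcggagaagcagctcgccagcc
These matches describe letters in a window, and binding was not measured. The shorter core alone, AGAC or GTCT on the other strand, was not searched. The printed SMAD2 window holds it as GTCT, so a window without CAGAC can still contain the core.

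By the size of their change and its course over the 6 libraries, 3 genes were most like SMAD3 among 12050 genes with at least 100 normalized counts on average. They were ASAP2, CRAMP1L and CD47, with root mean square differences from SMAD3 of 0.0300, 0.0317 and 0.0361 in centred log2 CPM. Their log2 fold changes were 0.31, 0.35 and 0.32.

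The other genes of the pathway were grouped by their role around the SMADs, from lists chosen with earlier results of these data known. Beside the counts of every list below, 9.36% of all genes tested rose and 8.09% fell. The type I receptors phosphorylate the SMADs, and 1 of the 6 tested rose, 0 fell and 5 did not pass. The one that rose was TGFBR1, the type I receptor for TGF-β that acts on SMAD2 and SMAD3, with a log2 fold change of 0.37 (SE 0.06). Of the 4 type II receptors tested, which activate the type I receptors, BMPR2 rose by 0.66 (SE 0.07) on the log2 scale and TGFBR2 fell by 0.24 (SE 0.06). The medians of these lists were 0.11 and -0.03.

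Both inhibitory SMADs rose. SMAD7, which blocks TGF-β receptors and is itself a SMAD3 target, increased from 52.3 ± 10.4 to 299 ± 29.4 normalized counts (SD, n = 3), a log2 fold change of 2.53 (SE 0.16). SMAD6, which acts mainly on the BMP branch, increased from 70.5 ± 13.0 to 112 ± 20.9, a log2 fold change of 0.66 (SE 0.19, adjusted p = 0.0215 by edgeR). The SMAD6 call was lost without si-Control replicate 1 (adjusted p = 0.0687), si-Control replicate 3 (0.0667) or si-CITED2 replicate 3 (0.136).

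Among 12 anchors and nuclear transport factors, 1 rose, 2 fell and 9 did not pass, with a median of -0.04. DAB2, an adaptor that joins SMADs to receptors, rose by 0.43 (SE 0.10), and the importins KPNB1 and IPO8 fell by 0.20 (SE 0.05) and 0.19 (SE 0.06). The KPNB1 call was lost without si-Control replicate 2 or si-CITED2 replicate 3, and the IPO8 call when any library other than si-Control replicate 1 was left out. Of 17 ubiquitin enzymes and phosphatases, 5 rose, 3 fell and 9 did not pass, with a median of -0.02. Among those 5, the deubiquitinase gene USP9X (0.16, SE 0.05) lost its call without TMM, with the replicate block and when any library other than si-Control replicate 3 was left out. The 3 that fell became 1 without si-CITED2 replicate 3. SMURF2, a ubiquitin ligase for SMADs and receptors, changed most in this list, by 1.12 (SE 0.05). SMURF1 rose by 0.28 (SE 0.05) and the phosphatase gene CTDSP2 by 0.30 (SE 0.05), and the ligase gene WWP2 fell by 0.26 (SE 0.06).

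Of 8 coactivators tested, CITED2 itself rose, in a call that other fits lost as given above, the acetyltransferase gene KAT2B fell by 0.54 (SE 0.09), and 6 did not pass (median -0.03). Of 7 corepressors 1 rose, SKIL, which binds and represses SMAD complexes, with a log2 fold change of 2.41 (SE 0.08), and the median was 0.10. Of 14 DNA-binding partners, 4 rose, 0 fell and 10 did not pass (median 0.03). These 4 were RUNX2 (0.50, SE 0.12), RUNX1 (0.36, SE 0.07), ATF3 (0.26, SE 0.08) and ZEB1 (0.25, SE 0.06). The ATF3 call was lost without si-Control replicate 1 or 3 or si-CITED2 replicate 1 or 2, and the ZEB1 call without si-Control replicate 2 or si-CITED2 replicate 3.

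Known target genes were listed for each branch. Of 19 genes known as SMAD2 and SMAD3 targets, 16 rose and 0 fell, beside 9.36% and 8.09% of all genes tested, with a median log2 fold change of 2.20. COL7A1, a collagen gene, rose by 4.17 (SE 0.16), ANGPTL4 by 3.72 (SE 0.06) and PMEPA1, an inhibitor of SMAD phosphorylation, by 3.60 (SE 0.06). CDKN2B, FN1 and COL1A1 did not pass, with log2 fold changes of 0.20, 0.17 and 0.32. Of 6 tested targets of SMAD1, SMAD5 and SMAD9, 2 rose, 1 fell and 3 did not pass, with a median of 0.09. ID1, a classical BMP target, fell by 0.70 (SE 0.09), while ID3 rose by 0.49 (SE 0.09) and SMAD6 rose as given above. SMAD7 and SKIL are in the list of SMAD2 and SMAD3 targets as well as in their own, and whether these lists differ from each other or from other genes was not tested.

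**Figure D5:**
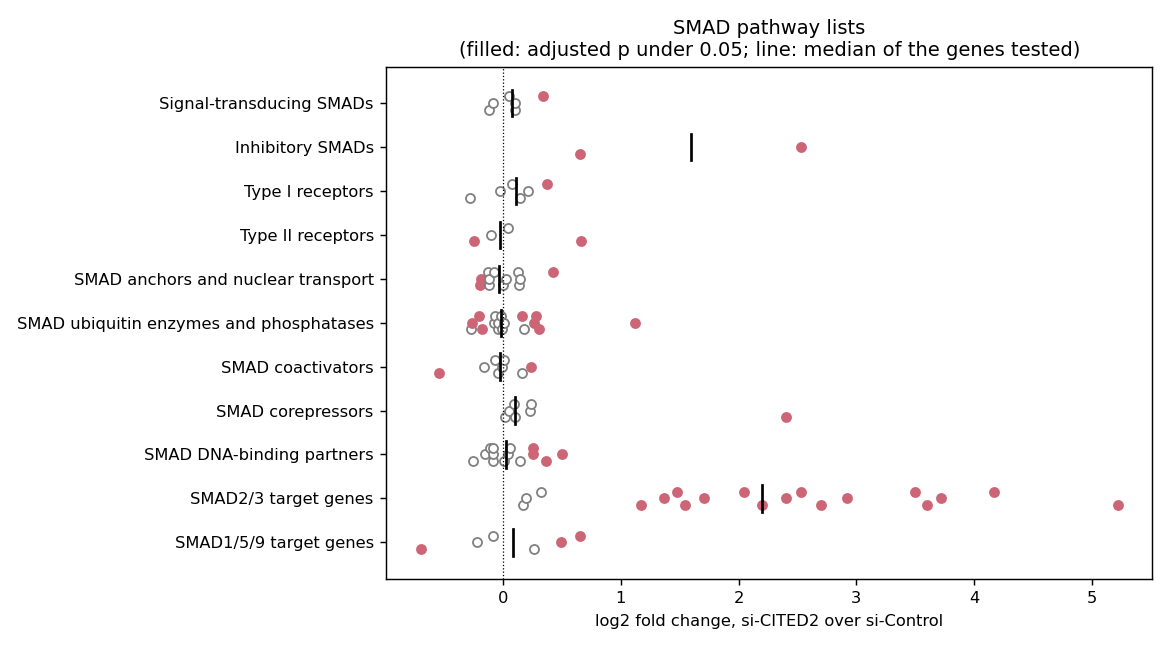
Log2 fold change in si-CITED2 over si-Control (horizontal axis) of the tested genes in each list of the SMAD pathway (rows), with filled points at an adjusted p under 0.05 and lines at the medians. The median was 0.07 for the signal-transducing SMADs and 2.20 for the SMAD2 and SMAD3 target genes.

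Some markers moved with the labels as well. The summed epithelial and VIM level was 2903 to 3107 CPM in the libraries labelled si-Control and 3352 to 3603 CPM in those labelled si-CITED2. The erythroid sum of HBA1, HBB and ALAS2 was 0.0377 to 0.103 CPM and 2.65 to 3.61 CPM, with ALAS2 at no more than 2 counts. Their part in the SMAD3 result was not tested.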

How the data were processed

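RNA was extracted with Trizol and libraries were made with a SMARTer mRNA-seq kit from 3 si-Control and 3 si-CITED2 samples of PC3 cells. Raw read counts for each gene symbol were deposited by the authors in 1 file per sample, with no normalization. The submitters' processing notes name TopHat, edgeR and the build hg19, and give no versions or roles. A figure legend of the study states that the RNA-seq experiments were repeated independently. The labels do not say whether libraries came from separate cultures, and p-values then measure only the spread between these libraries.

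The files hold 25737 rows for 24462 symbols. For 286 symbols with several rows, 0 of them members, the row holding most counts was used. The counts were fitted with edgeR 4.0.16 in R 4.3.3 (filterByExpr, TMM, quasi-likelihood test without a block). Benjamini-Hochberg adjustment ran over 16314 genes at a threshold of 0.05. Normalized counts were scaled to the mean effective library size after TMM. Log2 CPM used a prior count of 2. Ratios were compared by exact two-sided permutation tests (scipy 1.17.1). Positions and lengths came from GENCODE 29 (GRCh38), since no annotation of hg19 was used here. The total counts of 19494137 to 28911542 set the counting error. Scripts were tested on simulated data.

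Members and lists were chosen with earlier results of these data known. The naming rule took the members, CITED2, up to 4 passing genes with the largest absolute log2 fold change per list, the nearest fitted neighbours of each member, and the 3 genes most like SMAD3. TGIF1, NEDD9, the genes that did not pass, the other genes named for a changed call, and the antisense genes and markers were named outside it. Some genes that the naming rule or the marker lists hold are not reported here. Alternatives were DESeq2 1.42.0, no TMM, other filters on low counts (a non-zero total, or at least 10 counts in every library), summed repeated rows, a replicate block by number, each library left out in turn, and other lengths.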

Additional observations from a re-analysis of the deposited data

How the results depend on the processing

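For the 6 SMAD genes, all 72 alternative fits (6 settings and 6 left-out libraries per gene) kept the direction and the side of the threshold. SMAD3 ranged from 0.32 to 0.34 (log2, adjusted p 1.817e-06 to 0.00112) over the settings and from 0.27 to 0.39 (adjusted p 0.000677 to 0.00671) with a library left out, by edgeR or DESeq2. The main fit took no replicate numbers as pairs, because the study's methods used unpaired tests. Same-numbered replicates did not deviate together over the genes tested (correlations -0.038, 0.0336 and -0.0109). With the replicate block SMAD3 was at 0.34 (adjusted p = 0.000724, edgeR), 1 member rose and 0 fell, and 1405 genes rose and 1154 fell. USP9X (adjusted p = 0.0642) was lost under the block, the only listed gene whose call that setting changed. USP9X was also lost without TMM (0.0745) and in 5 of the 6 fits with a library left out.

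The ratio of SMAD1 to SMAD5 lay so near 0 that its log2 difference changed sign, to 0.05001 without si-Control replicate 2, 0.0151 without si-CITED2 replicate 1 and 0.0284 without si-CITED2 replicate 3, in a range of -0.0531 to 0.05001.

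Levels of the si-Control libraries depended on the length by construction. Per kilobase of merged exons they were 3.58 (SMAD1), 3.71 (SMAD2), 18.5 (SMAD3), 3.55 (SMAD4), 7.0 (SMAD5) and 1.75 (SMAD9). Per kilobase of coding sequence they were 15.5, 96.0, 132, 28.0, 45.3 and 7.13 in the same order. In CPM without length they were 21.7, 135, 168, 46.5, 63.3 and 10.01.

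The counts of small lists moved by 1 or 2 genes. With DESeq2 2 anchors and transport factors rose (IPO7 added). TGIF1 (adjusted p = 0.0501 in the edgeR result above) made 2 corepressors rise with DESeq2, without a filter and with the filter of 10 counts. With the filter of 10 counts, 15 SMAD2 and SMAD3 targets rose instead of 16, since NEDD9 did not meet it. Without TMM 0 coactivators rose, since CITED2 was lost (adjusted p = 0.0518, edgeR). CITED2 was also lost without si-Control replicate 1 (0.0536), si-Control replicate 3 (0.141), si-CITED2 replicate 1 (0.154) and si-CITED2 replicate 3 (0.0846), with its direction kept. With a library left out, 1 to 2 inhibitory SMADs, 0 to 1 coactivators, 1 to 2 corepressors, 1 to 2 anchors and transport factors, 4 to 6 ubiquitin enzymes and phosphatases and 1 to 2 SMAD1, SMAD5 and SMAD9 targets rose. The DNA-binding partners that rose numbered 3 in each of these 6 fits, against 4 with all libraries. In the same fits 0 to 2 anchors and transport factors, 1 to 2 coactivators and 1 to 3 ubiquitin enzymes and phosphatases fell, where leaving out si-CITED2 replicate 3 lost KPNB1, IPO8, NEDD4L and STUB1 together. The cause of these changed calls was not tested. Depth limits SMAD9 most, whose spread did not exceed counting error.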

Other observations

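The nearest tested genes on either side of each SMAD gene were taken from GENCODE 29, in which 92.1% of the tested symbols matched 1 gene. SMAD5, which did not pass the test, lies between genes that rose far more in the libraries labelled si-CITED2. TGFBI, an extracellular matrix gene already counted above among the SMAD2 and SMAD3 targets, lies 69.0 kb away. It had a log2 fold change of 2.70 (SE 0.05, adjusted p = 2.374e-15 by edgeR). SPOCK1, a proteoglycan gene 786.6 kb away on the other side, had one of 4.98 (SE 0.38, adjusted p = 6.262e-08 by edgeR).

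SMAD3 lies 280.9 kb from SMAD6, which rose by 0.66, and 5.8 kb from AAGAB, which had a log2 fold change of 0.14 (adjusted p = 0.082, edgeR). On either side of SMAD2, at 607.9 and 632.6 kb, CTIF rose by 0.30 (adjusted p = 0.00344, edgeR) and IER3IP1 had a value of 0.22 (adjusted p = 0.0884). Beside SMAD4, MEX3C rose by 0.20 (adjusted p = 0.0455, edgeR) and ELAC1 had a value of 0.27 (adjusted p = 0.297). The neighbours of SMAD1 (OTUD4 0.13 and MMAA -0.13) and of SMAD9 (RFXAP 0.13 and ALG5 -0.04) did not pass the test.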
